A study of Mus musculus with 4 samples.

Results

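The 39 genes described here encode proteins that carry a cell through mitosis: cyclins, kinases, kinetochore and spindle checkpoint proteins, partners of the anaphase-promoting complex, spindle motors and cytokinesis factors. Every probe named for one of them that was not a control was taken from each of 4 single-channel (Cy3) microarrays, which gave 57 probes for the 39 genes out of 55681 probes for 34761 genes or transcripts. The RNA came from mouse embryonic fibroblasts (MEFs) of E13.5 embryos that carry EGFP under the Oct4 promoter and enhancer (OE-MEFs), collected at 8 days postinfection (dpi). All cells received retroviruses for Oct4, Sox2 and Klf4 (OSK), and 2 of the 4 cultures also received AKT-MER (OSKA), a myristoylated AKT fused to a modified estrogen receptor that becomes active when 4-hydroxytamoxifen (4OHT) binds. 4OHT (+ 4OHT) or its ethanol vehicle (− 4OHT) was present from 3 dpi, so AKT was activated in the OSKA + 4OHT culture alone. Each of the 4 groups was measured on 1 array of 1 slide, with no replicate, so that no difference below has a test. Infection by retrovirus gives a mixed culture, and the fibroblasts of several embryos were pooled. The free-text description of the OSKA + 4OHT array is worded for cells without AKT activation and goes against its title, which was used.

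Mitosis starts when cyclin B bound to CDK1 becomes active, which the CDC25 phosphatases promote. Aurora kinases, PLK1 and the chromosomal passenger complex then build the spindle and correct its attachments. The spindle checkpoint, with TTK, BUB1, BUBR1 and MAD2, holds the anaphase-promoting complex (APC/C) inactive until every kinetochore is attached. CDC20 then activates the APC/C, which marks cyclin B and securin for destruction and so frees separase to part the sister chromatids. Transcripts of these genes accumulate late in the cell cycle, a timing to which the DREAM and MuvB complexes, FOXM1, and promoter motifs known as the cell cycle genes homology region (CHR) and the CCAAT box bound by NF-Y contribute. In bulk RNA, a larger share of cells near mitosis and more of a transcript per cell cannot be told apart.

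The largest difference among the measured members rested on 1 probe, that of Ttk, so its sequence is shown with those of 2 of the 3 probes of Ccnb1, the gene with the next largest 4OHT effect in OSKA cells. Those shown are the dimmer probes, and the brightest, which stands for the gene, is not printed. Each probe has 60 bases, is written 5′ to 3′ in the sense of the transcript, and is placed by the files on the NCBI37 mouse genome. The Ttk probe lies within chr9:83758726-83761669 (plus strand), a span of 2944 bases, so by these coordinates it joins separate exons. The Ccnb1 probes lie at chr13:101551224-101551283 and chr13:101553449-101553508 (minus strand). Each of the 3 sequences holds 1 forward reading frame without a stop codon among the 3 frames.
Ttk A_52_P110534: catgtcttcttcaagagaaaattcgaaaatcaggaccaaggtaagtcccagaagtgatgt
Ccnb1 A_55_P1952256: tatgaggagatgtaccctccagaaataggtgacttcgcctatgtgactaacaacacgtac
Ccnb1 A_55_P2128668: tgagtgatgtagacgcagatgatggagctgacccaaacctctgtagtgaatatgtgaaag

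Promoters of 4 members follow because 3 of them hold CHR and CCAAT motifs close together, and the promoter of Ccnb1 holds CCAAT alone. Each window runs from 110 bases before the transcript start to 30 bases after it, 140 bases in all, in the direction of transcription, taken from RefSeq on GRCm38.p6. Capitals mark CCAAT and the CHR element, searched as TTTGAA or TTCGAA on both strands. The windows are chr9:83834579-83834718 (plus strand) for Ttk, chr4:118437314-118437453 (minus strand) for Cdc20, chr9:70421525-70421664 (minus strand) for Ccnb2 and chr13:100786457-100786596 (minus strand) for Ccnb1.
Ttk promoter: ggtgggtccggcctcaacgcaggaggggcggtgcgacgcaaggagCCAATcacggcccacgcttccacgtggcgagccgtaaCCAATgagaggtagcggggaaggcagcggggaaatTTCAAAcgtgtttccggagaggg
Cdc20 promoter: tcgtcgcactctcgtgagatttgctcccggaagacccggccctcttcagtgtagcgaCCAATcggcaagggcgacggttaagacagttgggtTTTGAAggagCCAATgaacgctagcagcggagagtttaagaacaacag
Ccnb2 promoter: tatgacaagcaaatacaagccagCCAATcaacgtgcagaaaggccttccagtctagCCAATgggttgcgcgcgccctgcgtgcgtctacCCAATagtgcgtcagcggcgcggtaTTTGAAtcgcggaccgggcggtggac
Ccnb1 promoter: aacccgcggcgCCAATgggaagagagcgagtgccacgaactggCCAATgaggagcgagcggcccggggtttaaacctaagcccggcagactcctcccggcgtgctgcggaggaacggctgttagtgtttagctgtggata

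A level is the log2 intensity of a probe minus the 75th percentile of its array, so that 0 is the 75th percentile. That percentile lay between 377 and 462 intensity units, and 52.4% to 55.4% of spots were well above background on each array. Where a gene had several probes, the brightest stood for it, and 2 arrays were compared only if that probe stood well above background on each. This gave values for 37 of the 39 mitotic genes. Fibroblast markers were well above background on all 4 arrays (9 of 9, summed level 1440 to 1650 times the 75th percentile). Their median 4OHT effect was 0.06 (OSKA) and 0.05 (OSK), and in OSKA against OSK cells it was 0.25 without 4OHT (7 of 9 higher) and 0.37 with it (6 of 9 higher). Of the pluripotency markers, 5 of 8 were well above background (summed level 3.54 and 4.67 without and with 4OHT in OSK cells, 4.80 and 3.39 in OSKA cells), and Zfp42, Esrrb and Dppa4 were not on any array. With 4OHT in OSKA cells, 3 of the 5 were lower (median −0.18). Macrophage markers (6 of 6) summed to 179 and 266 without and with 4OHT in OSK cells and to 257 and 231 in OSKA cells. With 4OHT, 6 of 6 were higher in OSK cells (median 0.56) and 5 of 6 were lower in OSKA cells (median −0.17), and the median difference of these effects was −0.66. Epithelial markers, of which 5 or 6 of 6 were well above background, summed to 3.88 and 3.11 without and with 4OHT in OSK cells and to 2.30 and 3.30 in OSKA cells. With 4OHT in OSKA cells, 4 of 6 were higher (median 0.47), among them Krt18 at 0.85, and Cdh1 and Epcam were at −0.14 and −0.45. The part of these cell types in the differences below was not tested.

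The mitotic genes were slightly higher with 4OHT where the cells carried AKT-MER. In OSKA cells, 33 of 37 genes were higher with 4OHT than without it, with a median log2 difference of 0.15 (1.11-fold), beside 45.2% of all 20284 genes measured and a median of −0.03. In OSK cells, which lack AKT-MER, 21 of 37 were higher with 4OHT, with a median of 0.03, beside 49.4% of all genes and a median of −0.004. With spike-in scaling, described below, the OSK count was 1 of 37 and the median −0.27, beside 13.7% and −0.30 for all genes. Comparing OSKA with OSK cells, 29 of 37 were higher with 4OHT present, with a median of 0.19 beside 42.9% of all genes and a median of −0.05 (with spike-in scaling 22 of 37 and 0.09, beside 30.4% and −0.15). Without 4OHT, 16 of 37 were higher in OSKA cells, with a median of −0.01 beside 47% of all genes and a median of −0.02, and with spike-in scaling 0 of 37 were, with a median of −0.47 beside 8.72% and −0.48. The comparisons share arrays, and the OSKA + 4OHT array enters both of those in which most members were higher. Per gene, the 4OHT effect in OSKA cells exceeded that in OSK cells in 31 of 37 (83.8%), by a median of 0.20 on the log2 scale, beside 45.7% of all genes and a median of −0.04. With spike-in scaling that median was 0.57, beside 0.33 for all genes. This scaling moves every gene on an array by the same amount, so the excess over all genes could not change.

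**Figure D1:**
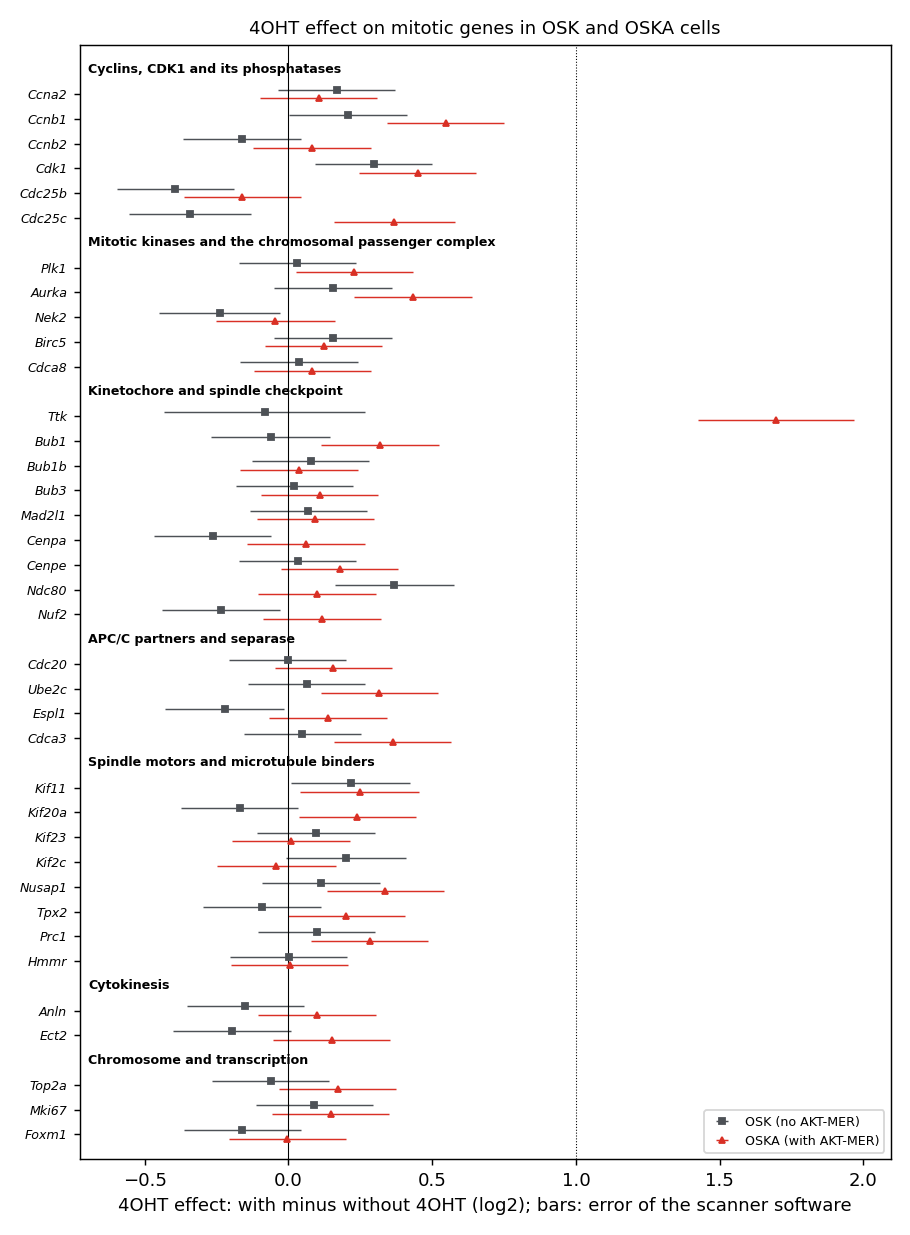
The 4OHT effect (log2 level with 4OHT minus without it, x axis) of the 37 measured mitotic genes by role, in OSK cells (squares) and in OSKA cells (triangles), with bars of 1 error from the scanner software and a dotted line at 2-fold. Most triangles lie right of 0 (33 of 37) while the squares lie on both sides, and Ttk alone passes the dotted line.

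These differences were small for single genes. Among the 37 measured genes, only Ttk differed at least 2-fold, and it was higher in both comparisons that involve AKT activation. Of all genes, 2.01% were at least 2-fold higher with 4OHT in OSKA cells, 0.61% with 4OHT in OSK cells, 1.09% in OSKA against OSK cells without 4OHT and 1.92% with it. The shares at least 2-fold lower, in the same order, were 0.897%, 0.277%, 0.927% and 1.12%. The error model of the scanner software gives each difference an error of 0.20 to 0.35 on the log2 scale, which covers the array and not the culture. With 4OHT in OSKA cells, 13 of 37 genes were higher by more than that error and 0 were lower, beside 18.4% of all genes higher and 24.1% lower. In OSK cells, 4 were higher and 6 were lower by more than the error, beside 18% and 16% of all genes. In OSKA against OSK cells, 17 were higher and 1 (Anln) was lower with 4OHT (18.5% and 27.2% of all genes), and 1 was higher and 5 were lower without it (20.6% and 19.2%).

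Cyclins and CDK1 come first, since they drive entry into mitosis. In the sentences that follow, levels are given first for OSK cells without and with 4OHT, and then for OSKA cells without and with it. Ccnb1, which encodes cyclin B1, had levels of 2.06, 2.26, 2.21 and 2.75. The AKT-activated array stood apart from the other 3, with a difference of 0.55 (1.46-fold) between the OSKA arrays and 0.21 between the OSK arrays. Cdk1, its kinase partner, had levels of 0.70, 1.001, 0.85 and 1.30. Both + 4OHT arrays were above their − 4OHT array for Cdk1, by 0.45 in OSKA cells (1.37-fold) and by 0.30 in OSK cells, each beyond the error of 0.20. Spike-in scaling moves every gene by −0.30 in the comparison of OSK cells, so the OSK rise of Cdk1 is absent under it. The other cyclins of mitosis moved less, with differences in OSKA cells of 0.10 for Ccna2 and 0.08 for Ccnb2.

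The CDC25 phosphatases, which remove inhibitory phosphates from CDK1, differed from each other. Cdc25b had levels of 2.65, 2.25, 2.24 and 2.08, so it was highest without 4OHT in OSK cells and lowest on the AKT-activated array, the only measured member that was lowest there. Cdc25c, named here after its values were seen, had levels of −1.23, −1.58, −1.68 and −1.31. Its order over the arrays was not that of Cdc25b, since 4OHT went with a higher level in OSKA cells (0.37) and a lower one in OSK cells (−0.34). Over the 6 cyclin, CDK1 and phosphatase genes, 5 were higher with 4OHT in OSKA cells with a median of 0.24, and 3 of 6 were higher in OSK cells.

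Among the mitotic kinases, Aurka, which encodes the Aurora kinase of the spindle poles, had levels of 2.20, 2.35, 2.40 and 2.83. Its differences were 0.43 (1.35-fold) between the OSKA arrays and 0.16 between the OSK arrays. Plk1, the kinase that acts from centrosome maturation to cytokinesis, had levels of 3.38, 3.41, 3.39 and 3.62. Its other 3 arrays lay within 0.03 of each other and the AKT-activated array was at least 0.21 above them. Nek2, a centrosome kinase, was lower by 0.05 with 4OHT in OSKA cells, within its error of 0.21.

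The chromosomal passenger complex, in which Aurora B works with survivin and borealin on the scaffold INCENP, is represented by Aurkb, Birc5 and Cdca8. Incenp, one of the further mitotic genes, had levels of 3.95, 4.11, 4.19 and 4.26. Aurkb was well above background on the OSK − 4OHT array alone, with intensities of 34, 4.31, 3.76 and 3.97. On the other arrays it was close to the median of the negative controls there (3.98, 3.28 and 3.59), so its transcript was not detected. Its signal was at least 1.71-fold lower with 4OHT in OSK cells. It was at least 2.20-fold lower with AKT-MER than without it when 4OHT was absent. Both bounds rest on 1 dim spot of the OSK − 4OHT array, and the 4OHT effect of Aurkb in OSKA cells has no value. Birc5, which encodes survivin, was among the brightest probes with levels of 4.43, 4.58, 4.60 and 4.72. The differences of Birc5 were between 0.12 and 0.17 in all 4 comparisons, within the error, and the brightest Cdca8 (borealin) probe differed by 0.08 or less.

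Ttk, the checkpoint kinase also known as MPS1, showed the largest difference among the 37 measured members. Aurkb, which has only a lower bound, has no place in this order. The intensities of Ttk were 41.2, 31.7, 33.9 and 104, and its levels −3.49, −3.57, −3.57 and −1.88. The 3 arrays without AKT activation lay within 0.08 of each other, and the AKT-activated array was 1.70 above both of the arrays it is compared with (3.24-fold, errors 0.27 and 0.30). Ttk has 1 probe with 1 spot on each array, and its signal was low but well above background on all 4.

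Bub1, a checkpoint kinase of the kinetochore, is the only member printed as 10 spots per array. The mean over the spots used was −0.53 ± 0.06 (SD, n = 9 spots), −0.59 ± 0.08 (n = 8), −0.32 ± 0.07 (n = 9) and 0.00 ± 0.06 (n = 9). These SDs describe spots of 1 hybridisation and not cultures. The lowest spot on the AKT-activated array (−0.09) was above the highest on the OSKA − 4OHT array (−0.25). Bub1 was 1.25-fold higher with 4OHT in OSKA cells and 1.5-fold higher with AKT-MER than without it when 4OHT was present. By the brightest probes, Bub1 was besides Ttk the only measured member that differed at least 1.5-fold in any comparison. Of all genes, 5.06% were at least 1.5-fold higher with 4OHT in OSKA cells, 4.33% with 4OHT in OSK cells, 5.66% in OSKA against OSK cells without 4OHT and 5.46% with it, and 4.62%, 1.63%, 3.99% and 5.1% were lower to that extent.

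By their brightest probes, the other checkpoint genes differed between arrays by less than the error. Bub1b, which encodes BUBR1, had levels of 0.03, 0.11, −0.01 and 0.03, and Bub3, the partner of both BUB proteins, differed by 0.11 between the OSKA arrays. Mad2l1, which encodes MAD2, had levels of 1.77, 1.84, 1.78 and 1.87. The checkpoint genes therefore ranged from 0.04 (Bub1b) to 1.70 (Ttk) in the 4OHT effect of OSKA cells. All 9 measured genes of the kinetochore and checkpoint were higher with 4OHT in OSKA cells, with a median of 0.11, and 5 of 9 were higher in OSK cells.

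Among the structural genes of the kinetochore, Cenpa, the histone H3 variant of centromeres, had levels of 2.26, 1.998, 1.99 and 2.05. It was thus highest on the OSK − 4OHT array, and the other 3 arrays lay within 0.06 of each other. Cenpe, a kinesin that links kinetochores to microtubules, was 0.18 higher with 4OHT in OSKA cells and 0.31 higher in OSKA against OSK cells with 4OHT. Ndc80 and Nuf2, which form a microtubule-binding complex together, moved in opposite directions with 4OHT in OSK cells (0.37 and −0.24) and alike in OSKA cells (0.10 and 0.12). Cenpf, a kinetochore protein, was well above background on the OSK − 4OHT array alone, with intensities of 25.5, 17.4, 9.47 and 13.1. It was at least 1.20-fold lower with 4OHT in OSK cells and at least 1.66-fold lower with AKT-MER than without it when 4OHT was absent.

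Partners of the APC/C and separase were all higher on the AKT-activated array than on the OSKA − 4OHT array. Cdc20, the activator of the APC/C, had levels of 3.43, 3.43, 3.43 and 3.59. The 3 arrays without AKT activation differed by less than 0.01 for Cdc20, and the AKT-activated array was 0.16 above them (1.11-fold), which is within the error of 0.20. Ube2c, the ubiquitin-conjugating enzyme of the APC/C, had a difference of 0.32 between the OSKA arrays and Cdca3, a trigger of mitotic entry, one of 0.36. Espl1, which encodes separase, had one of 0.14. In this group 4 of 4 genes were higher with 4OHT in OSKA cells (median 0.24), 2 of 4 were so in OSK cells, and 0 of 4 were higher in OSKA against OSK cells without 4OHT.

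Spindle motors and microtubule binders followed with 7 of 8 genes higher with 4OHT in OSKA cells (median 0.22) and 6 of 8 in OSK cells (median 0.10). Kif11, the motor that pushes spindle poles apart, had levels of −0.98, −0.76, −0.95 and −0.70. Both + 4OHT arrays were higher for Kif11, by 0.25 in OSKA and 0.22 in OSK cells, and these effects differed by 0.03. Spike-in scaling moves every gene by −0.30 in the comparison of OSK cells and by 0.07 in that of OSKA cells. With that scaling, the OSK rise of Kif11 is absent, and its effects in OSKA and OSK cells lie further apart. Nusap1 (0.34) and Prc1 (0.28), which bundle microtubules, had the largest 4OHT effects of the group in OSKA cells, while Kif23 (0.01) and Hmmr (0.01) differed little. Kif20a, a motor of the midzone, and Tpx2, the activator of Aurora A, had 4OHT effects of 0.24 and 0.20 in OSKA cells and of −0.17 and −0.09 in OSK cells. Kif2c, a microtubule depolymerase, was 0.04 lower in OSKA cells.

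Cytokinesis was represented by Anln, an actin-binding scaffold, and Ect2, the activator of RhoA at the division plane. Both were higher with 4OHT in OSKA cells (0.10 and 0.15) and lower with it in OSK cells (−0.15 and −0.20). Anln was highest on the OSK − 4OHT array, at 3.40, and lowest on the OSKA − 4OHT array, at 2.95.

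The last group holds proliferation markers and the transcription factor of the programme. Top2a, which untangles sister chromatids, had levels of 1.33, 1.27, 1.33 and 1.505, with the AKT-activated array 0.17 above the highest of the others. Mki67, which encodes the Ki-67 protein of dividing cells, had levels of 4.13, 4.22, 4.07 and 4.22. Foxm1, the factor that activates many of these genes, had levels of 0.65, 0.49, 0.60 and 0.60. It was thus highest in OSK − 4OHT cells and was at nearly the same level on the OSKA arrays (−0.004), and its second probe was 0.17 lower with 4OHT in OSKA cells.

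**Figure D2:**
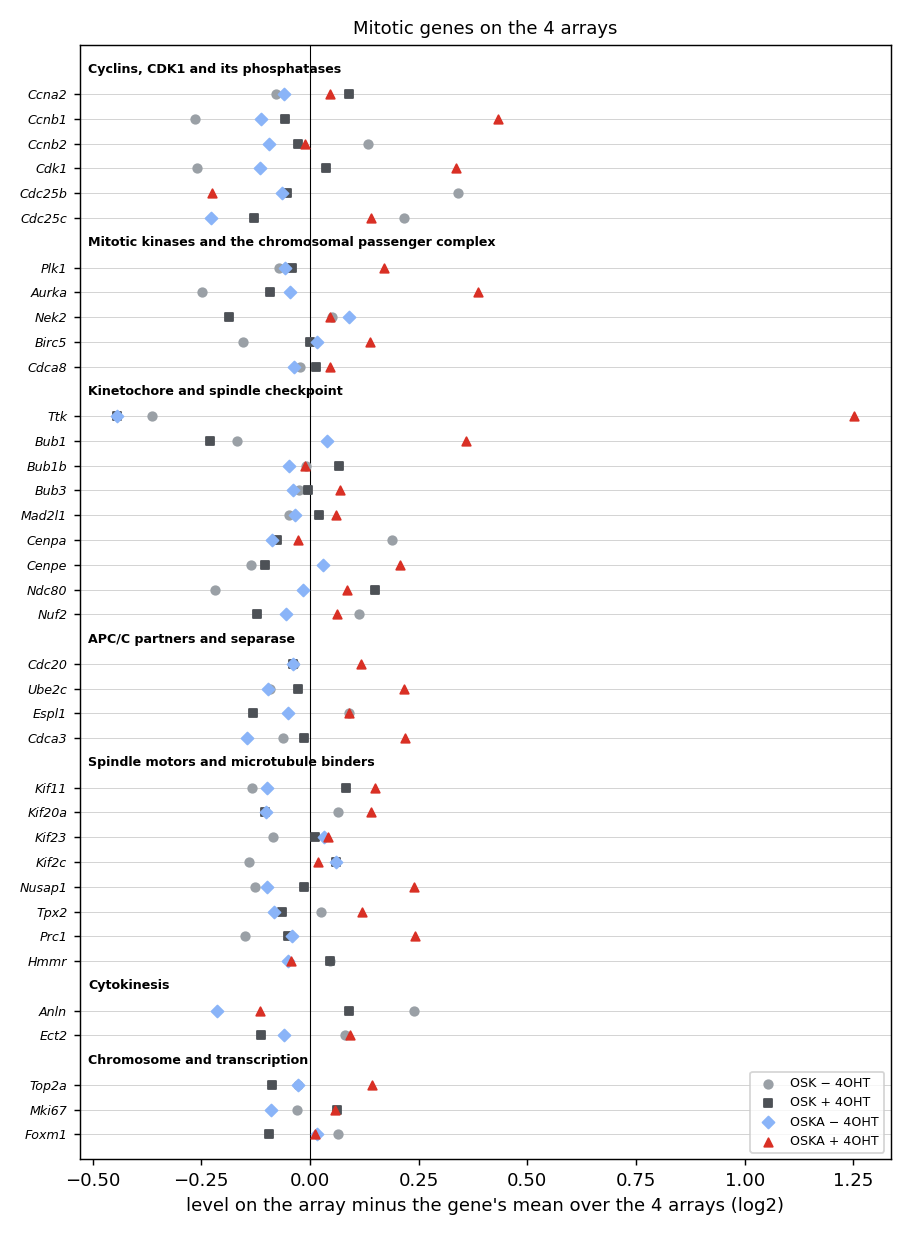
Level of each of the 37 measured mitotic genes on the 4 arrays, as the log2 distance from the gene's mean over the arrays (x axis), by role. The AKT-activated array (red triangle) is the highest of the 4 for 23 genes and the lowest for 1, Cdc25b.

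Over the arrays, the AKT-activated array held the highest level for 23 of 37 genes (62.2%), beside 27.3% of all 19525 genes measured on every array, and the lowest for 1 (37.5% of all genes). OSK − 4OHT was highest for 7 (31.6% of all genes), OSK + 4OHT for 6 (22.1%) and OSKA − 4OHT for 1 (19%). A stricter count asked that the AKT-activated level exceed each of the other 3 by more than those 3 differed among themselves. This held for 14 of 37 genes (37.8%), beside 10.8% of all genes. They were Ccnb1, Cdk1, Plk1, Aurka, Ttk, Bub1, Bub3, Cenpe, Cdc20, Ube2c, Cdca3, Nusap1, Prc1 and Top2a. The scaling bears on both counts, since scaling to 7 spike-in probes in place of the 75th percentile moved all genes by −0.47 to 0.07 on the log2 scale, depending on the comparison. Scaled in this way, OSK − 4OHT was highest for 31 of the 37 (83.8%, beside 77.8% of all genes) and the AKT-activated array for 5 (beside 9.91%), shares near those of all genes. The lowest array was OSKA − 4OHT for 34 of the 37 (91.9%, beside 47.5% of all genes) and the AKT-activated array for 1 (2.7%, beside 39.4%). The stricter count then held for Ttk alone (2.7%, beside 3.03% of all genes). Within OSKA cells the spike-in scaling left 36 of 37 higher with 4OHT, beside 56.8% of all genes.

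Other probes of the same genes gave a second reading of the same RNA. Of 18 probes that did not stand for their gene, 13 probes of 10 genes were measured in OSKA cells, and 11 of the 13 were higher with 4OHT (median 0.16), beside 4 of 13 in OSK cells. By their brightest probes, 45.2% and 49.4% of all genes were higher in these comparisons. The share over all probes that do not stand for their gene was not counted. The 3 probes of Ccnb1 differed by 0.55, 0.30 and 0.45 in OSKA cells and by 0.21, −0.26 and 0.18 in OSK cells. The second Tpx2 probe, with a level of −3.57 on OSKA − 4OHT and −2.85 on OSKA + 4OHT, was 0.73 higher (1.65-fold), more than the 0.20 of the brightest Tpx2 probe.

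Some probe sets disagreed. Cdk1 had a second probe that shares 41 of its 60 bases with the brightest probe by position, yet on every array it failed to stand well above background, with intensities of 10.4, 6.08, 8.34 and 17.3 against 752, 754, 727 and 945. The remaining Cdk1 probe was well above background on the AKT-activated array alone and at least 1.69-fold higher with 4OHT in OSKA cells. The other probes of Mad2l1 and Cdca8 differed beyond the error in some comparisons, unlike the brightest ones. For Mad2l1, 1 probe was 0.26 higher with 4OHT in OSKA cells, and the other was 0.25 lower with 4OHT in OSK cells and 0.30 higher in OSKA against OSK cells with 4OHT. The second Cdca8 probe was at −0.24 with 4OHT in OSK cells and at 0.28 in OSKA against OSK cells with 4OHT, each beyond its error of 0.20 (log2). The second Kif23 probe was well above background on OSKA − 4OHT alone and at least 1.54-fold lower with 4OHT. Birc5 had a probe at −0.03 beside probes at 0.12 and 0.29, and Kif2c probes at −0.04 and 0.16, differences that lie within the error of about 0.20 on either side of 0 except for the third Birc5 probe.

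**Figure D3:**
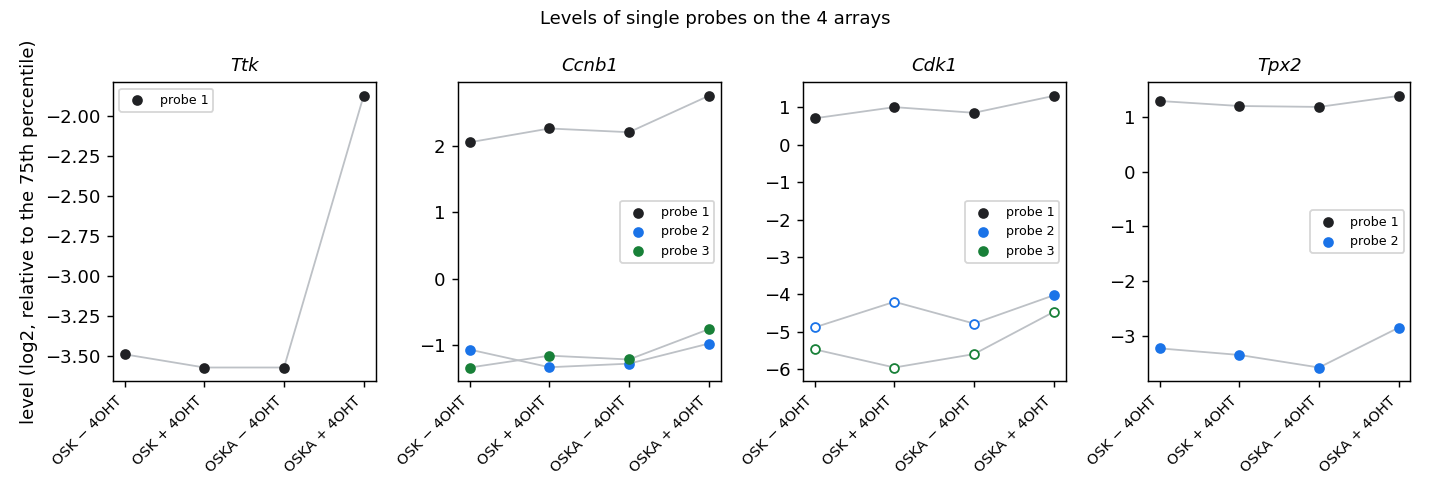
Level of every probe of Ttk, Ccnb1, Cdk1 and Tpx2 on the 4 arrays (y axis, log2 relative to the array's 75th percentile). Filled points are well above background and open points are not. The Ttk probe and the 3 Ccnb1 probes are highest on the OSKA + 4OHT array, and 2 of the 3 Cdk1 probes are near background.

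The genes of other cell cycle lists were set beside the members. Of 93 further mitotic genes, 92 were measured, 71 of them (77.2%) were higher with 4OHT in OSKA cells with a median of 0.15, and 43 (46.7%) were higher in OSK cells. Among these, 4 were at least 1.5-fold higher in OSKA cells, no larger a share than the 5.06% of all genes, and 0 were lower to that extent (4.62% of all genes). The members with the largest differences are given as a description. Sgo2a, which protects centromeric cohesion, had the largest difference, at 0.85 (1.80-fold, levels −2.21, −1.92, −2.40 and −1.55). It was followed by Depdc1a (0.69), Ska2 (0.67), a part of the complex that couples kinetochores to microtubules, and Gtse1 (0.63), a microtubule-binding protein. Arhgap11a was at 0.52 by its brightest probe but at 0.06 to 0.07 by its other 2 probes. The spindle motor gene Kif15 had the largest difference in the other direction, at −0.49 in OSKA cells and also −0.49 in OSK cells.

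DNA replication genes, which act in S phase before mitosis, showed a similar size of difference in OSKA cells. Of 45 measured, 33 (73.3%) were higher with 4OHT, with a median of 0.14, beside 45.2% of all genes and a median of −0.03. Without 4OHT, 9 of 45 (20%) were higher in OSKA against OSK cells, with a median of −0.07. Beside them stood 16 of 37 mitotic genes, and 47% of all genes with a median of −0.02. These counts depend on the scaling, since with spike-in scaling 0 of 37 mitotic genes and 8.72% of all genes were higher. With 4OHT in OSKA cells, the replication and mitotic lists thus had nearly the same median.

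**Figure D4:**
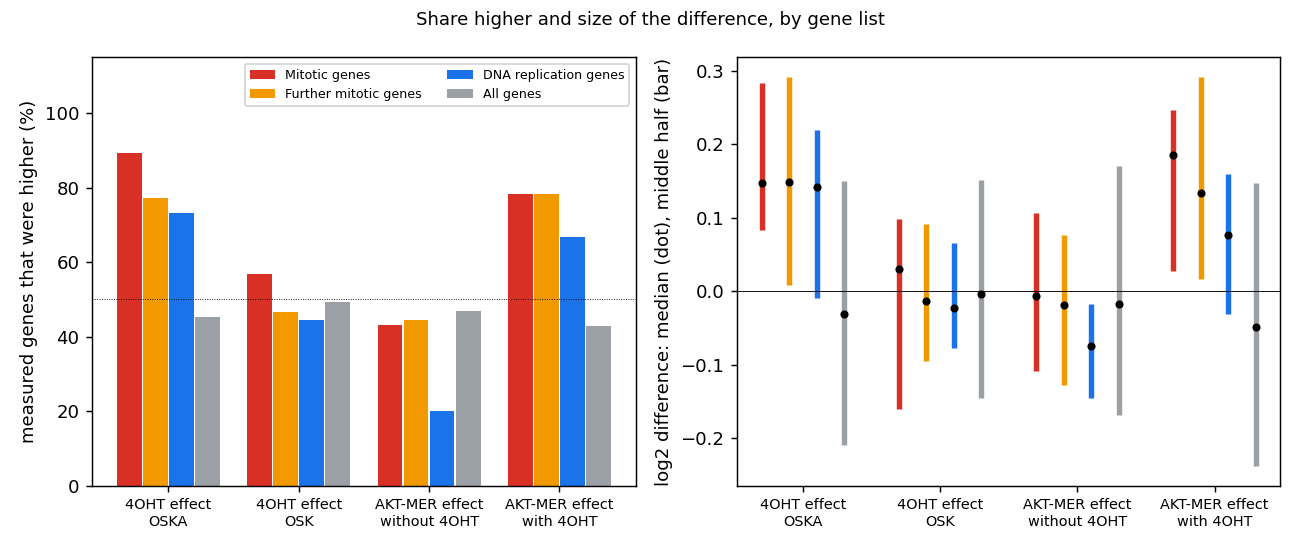
Share of measured genes that were higher (left, percent) and median log2 difference with its middle range (right; the bar spans the 25th to the 75th percentile) in the 4 comparisons, for mitotic genes, further mitotic genes, DNA replication genes and all genes. The 3 cell cycle lists stand above all genes wherever the OSKA + 4OHT array is compared with another.

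The promoters of the members share the motifs marked in the sequences above. RefSeq windows from 250 bases before to 50 bases after the transcript start were found for 33 of the 39 genes, 36 promoters in all. Bub3, Ect2 and Prc1 each have 2 windows that overlap, so their motifs are counted in both. The table gave none for Tpx2, Cdc25c, Aurkb, Foxm1, Kif20a and Ccna2. A CHR element (TTTGAA or TTCGAA, either strand) was present in 29 of 36 (80.6%), beside 19.2% of all 32851 promoters. CCAAT (either strand) was present in 29 of 36 (80.6%), beside 37.4%, and both motifs were present in 26 (72.2%), beside 7.52%. In 2 promoters matches share letters, those of Ube2c at −186 and −183 (CCAAT on both strands) and those of Cdca8 at 13 (CHR element) and 18 (CCAAT), and each match was counted. In promoters of DNA replication genes, CCAAT was found in 63.6% of 44 and a CHR element in 15.9%.

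In the Ttk window the CCAAT motifs start at −65 and −28, counted from the first transcribed base as 0, and the CHR element starts at 7. Those of Cdc20 lie at −53 and −8 with the CHR element at −18 between them, and Ccnb2 has 3 CCAAT motifs at −87, −54 and −21 and a CHR element at 4. Ccnb1 has CCAAT at −99 and −67 and neither of the CHR spellings searched. Over all member promoters, 30 of 39 CHR matches (76.9%) and 50 of 68 CCAAT matches (73.5%) lay between −110 and 50. At least 2 CCAAT motifs were held by 20 member promoters, of which 9 (45%) had a pair that starts 31 to 34 bases apart, beside 10.2% of the 3842 promoters of all genes with at least 2. This spacing was chosen after the values were seen.

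**Figure D5:**
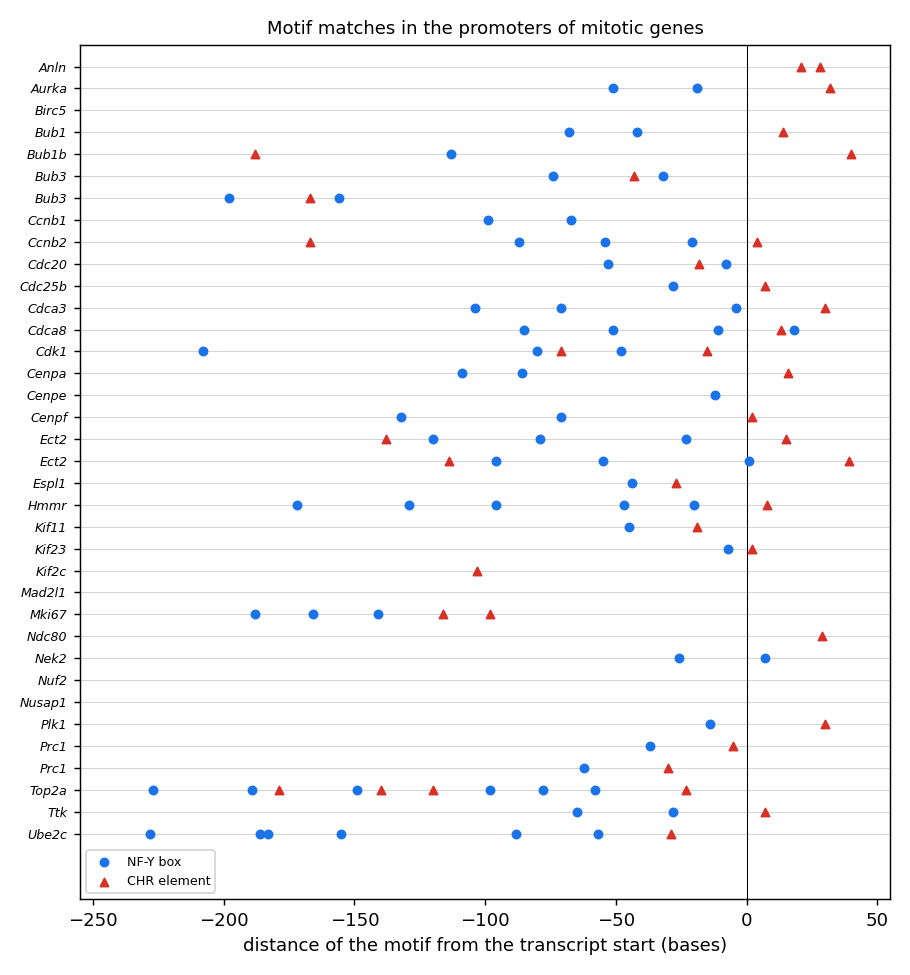
Position of each CCAAT match (NF-Y box, circles) and CHR element (triangles) in the 36 member promoters, as the distance in bases from the transcript start (x axis). Most matches lie between −110 and 50 (50 of 68 CCAAT and 30 of 39 CHR matches), and the rows without a mark hold neither motif. The share over all promoters was not counted. Bub3, Ect2 and Prc1 have overlapping windows that show the same sites again.

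Members with and without a CHR match were then set side by side on the arrays. With 4OHT in OSKA cells, 23 of 25 measured genes with a CHR element were higher (median 0.15) and 6 of 7 without one (median 0.12). In OSKA against OSK cells, 18 of 25 with a CHR element (median 0.07) and 7 of 7 without one (median 0.23) were higher with 4OHT, and 9 of 25 and 6 of 7 were higher without it. With 7 genes in the smaller set and no replicate, none of these differences was tested. The genes without one were Birc5, Ccnb1, Cenpe, Mad2l1, Nek2, Nuf2 and Nusap1. Outside the members, 289 measured genes have a CHR element together with at least 2 CCAAT motifs, and 58.5% of them were higher with 4OHT in OSKA cells (median 0.06), beside 47.5% of 11283 other genes with a promoter (median −0.01). A like excess was present in OSK cells, with 54.5% (median 0.03) beside 45.9% (median −0.02).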

How the data were processed

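Labelling used Cy3 on cRNA from 100 ng of total RNA, with 1 array per group. The deposited scanner files hold an intensity per spot, background-corrected by Feature Extraction 10.7.3.1 and not normalized between arrays. In the authors' series matrix the intensity is the same but rounded (ratio 0.995 to 1.005). Each array had 62976 spots, 59305 of them not controls. From the intensity, log2 values were computed, spots marked as uneven or outlying were left out (5 spots of members over all arrays), and the 75th percentile of the array was subtracted. No spot was saturated. Of the probes, 27509 (49.4%) were matched to RefSeq by accession, and names of other probes are those in the files. Promoter coordinates are on GRCm38.p6 and probe coordinates on NCBI37, and neither was converted.

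A difference is 1 array minus another, taken if the probe stood well above background on each. If it did so on only 1 of them, the fold is a bound, written as at least N-fold: the dim array contributed its own value or its lowest level well above background, whichever was greater. With 1 array per group there was no test, and the number of arrays limits the precision. Over 399 probes printed 10 times, spots of a probe had an SD of 0.0579 to 0.0674 (log2), and the difference between means carries no culture error. All arrays shared 1 slide, so slide position and group cannot be told apart.

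Values on every array are given for members that differ at least 1.5-fold in any comparison, for members whose probes disagree in direction beyond the error, and for Ttk, Ccnb1, Cdk1, Cdc20, Plk1, Aurka, Aurkb, Bub1b, Mad2l1, Cenpa, Kif11, Top2a, Birc5, Foxm1 and Mki67. Values of Cdc25b, Cdc25c and Cenpf were added later. Of the further mitotic genes, the 5 with the largest difference in OSKA cells were named, and Kif15 (the largest fall), Incenp and Cit were added later. Members and lists were chosen with earlier results of these data known. The 7 alternatives were normexp (limma 3.58.1 in R 4.3.3, offset 50) with quantile normalization, quantile normalization alone, spike-in scaling, the series matrix, no filter on dim probes, a filter on all 4 arrays and the mean of all probes of a gene. The calculations ran in Python 3.11.15 with pandas 2.3.3 and were tested on simulated data.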

Additional observations from a re-analysis of the deposited data

Results flagged for a closer look

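By the brightest probe, Cdc25c was the only one of the 37 measured members whose 4OHT effect went beyond the error of the software in opposite directions in the cells with and without AKT-MER. The log2 difference was 0.37 in OSKA cells (error 0.21, 1 array against 1) and −0.34 in OSK cells (error 0.21). The difference between the effects was 0.71, and it was not tested, since each group has 1 array. A dimmer probe of Ccnb1 did the same, at 0.30 and −0.26, as did the further mitotic genes Depdc1a (0.69 and −0.33) and Cit (0.41 and −0.28). Beyond the error, 18.4% of all genes were higher with 4OHT in OSKA cells and 16% were lower with it in OSK cells. The share of all genes that went in opposite directions was not counted, so these genes are not shown to stand out.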

How the results depend on the processing

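In OSKA cells, the median 4OHT effect of the mitotic genes lay between 0.11 (normexp) and 0.22 (spike-in scaling) over the 7 alternatives, with 33 to 36 genes higher. Of 37 genes, 33 kept their sign in all of them, 32 of these higher, and Nek2, Hmmr, Kif2c and Foxm1, all within 0.05 of 0, did not. The other comparisons depended on the scaling. With spike-in scaling the median 4OHT effect in OSK cells turned from 0.03 to −0.27 with 1 gene higher (13.7% of all genes), the median AKT-MER effect without 4OHT was −0.47 with 0 higher (8.72% of all genes), that with 4OHT was 0.088, and the median difference of the 4OHT effects was 0.57. Spike-in scaling moves every gene of a comparison by the same amount, here by −0.30, −0.47 and −0.10 in the 3 comparisons. The cause of these shifts was not tested. Quantile normalization turned the median AKT-MER effect without 4OHT from −0.01 to 0.001. Of 1036 differences of single genes over the alternatives, 959 moved by less than the error of the software, 77 moved by more (73 of them under spike-in scaling), and 0 reversed beyond it. Of the 959, 148 each came from no filter on dim probes, the filter on all 4 arrays and the series matrix. The filters leave the values of these genes as they are, and the series matrix holds the same intensities rounded. The mean of all probes also keeps the value of a gene with 1 probe. Such agreement was fixed in advance and does not bear on stability. No paired analysis was possible because each group holds 1 array. The paper describes OSKA cells as split after infection, at 3 dpi, into cultures with and without 4OHT. OSKA and OSK cells received different retroviruses and so were infected apart. In comparisons of OSKA with OSK cells, AKT-MER and the infection cannot be told apart. Probes near background, such as those of Aurkb and Cenpf, limit what can be measured, and no alternative supplies the missing replicates.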
